A study of Arabidopsis thaliana with 16 samples.

Results

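The genes described here are 6 nuclear loci of Arabidopsis thaliana that encode proteins of the plastid ribosome: AT5G65220 (L29), AT4G01310 (L5), AT3G54210 (L17) and AT1G29070 (L34) of the large subunit, and AT3G13120 (S10) and AT1G64510 (S6) of the small subunit. They were chosen as the plastid ribosomal protein loci that have an array probe annotated to them alone, and they account for 6 of the 3438 probes tested. The names of the proteins belong to this choice of loci, and the gene table used here lists these loci by locus number only. Transcript levels were compared between the psag mutant and wild type (WT), both of ecotype Columbia 0. The psag plants lack PSI-G, a small membrane protein of photosystem I, and no further allele, treatment, tissue, age or light condition is named for either genotype. Each genotype was represented by 8 arrays of total RNA, numbered as replicates 1 to 8.

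Plastids translate the transcripts of their own genome on ribosomes of bacterial type. Part of the ribosomal proteins and all the ribosomal RNAs of these particles are encoded in the plastid genome, and the remaining proteins are encoded in the nucleus, made in the cytosol and imported. The core subunits of both photosystems are among the products of these ribosomes, whereas PSI-G itself is encoded in the nucleus and imported. Nuclear genes of photosynthesis and of plastid translation are known to respond to signals from the plastid, and this makes the ribosomal genes a natural group to examine in a photosystem I mutant.

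The deposited values were probe intensities on a linear scale. Sums per array ranged from 2314 to 3460 and array medians from 0.172 to 0.347. The highest value was the same on 15 of the 16 arrays. Sums and unnormalized differences may thus depend on a scaling or ceiling that the labels do not give. Neighbouring replicates (1 and 2, 3 and 4, 5 and 6, 7 and 8) were averaged as 1 measurement each, which gave 4 measurements per genotype. Over all probes their deviations from the genotype mean correlated at 0.450 to 0.726 in psag and at -0.119 to 0.541 in WT. The averaging is thus weakly founded for part of the WT arrays. The psag values cannot show that neighbours belong together. The psag mean includes the outlying replicates 7 and 8, which can make replicates 1 to 6 deviate alike whether or not they are neighbours. Arrays of a genotype that are not neighbours were not compared in this way. The labels name neither pairs of neighbours nor the plants behind a replicate. The p-values thus cover the spread of these measurements alone, and that spread can be technical. Psag replicates 7 and 8 stood apart from all other arrays. Their measurement correlated with the other 7 at 0.819 to 0.852 over all probes, against 0.934 to 0.980 among those 7, and their sums of 2314 and 2367 were the lowest. Results that rest on this pair are therefore given with and without it. No probe was annotated to the mutated gene alone, so the labels could not be checked against it. Of 6 genes fixed as markers of green tissue, 4 were measured, PSAN, PSBW, PSBY and LHCB1.5, and all 4 were above 0 on all 16 arrays. Their summed deposited intensity, without normalization, was 28.8 to 66.2 on psag arrays and 60.9 to 111 on WT arrays. These sums also depend on the brightness of each array, and their difference was not tested. Markers of seeds, roots and senescing leaves had no probe of their own. The part of these marker levels in the results below was not tested. No tissue is named, and in RNA from mixed cells fewer green cells and less of a transcript per cell cannot be told apart.

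The question was whether transcripts of the plastid ribosome differed between psag and WT. None of the 6 genes passed the test (limma, Benjamini-Hochberg adjusted p threshold of 0.05 over all probes), while 11 of 3438 probes, or 0.320%, passed. At an unadjusted p under 0.05 there were also 0 of the 6, against 12.7% of all probes. The measurements of the genotypes overlapped for all 6 genes, and they were fully separate for 10.0% of all probes. With so few genes these shares do not set the group apart. Counts over the 6 genes, here and below, include L34 and S6, which were at 0 on most arrays and gave no level to compare. Among the 4 genes with signal on all arrays, 0 passed, 0 had an unadjusted p under 0.05 (limma) and 0 were separate. The median difference of the 6 genes was -0.03 on the log2 scale and that of all probes was 0. Over the 4 genes with signal on all arrays the median was 0.06, and 3 of the 4 differences were above 0. Of all 3438 probes, 1746 had a difference above 0, so this count does not set the 4 genes apart. Differences of either sign had a median size of 0.11 on the log2 scale among the 6 genes and of 0.25 among all probes. All differences are psag minus WT, on the scale of log2(intensity + 0.0407), which understates the change of dim probes.

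**Figure D1:**
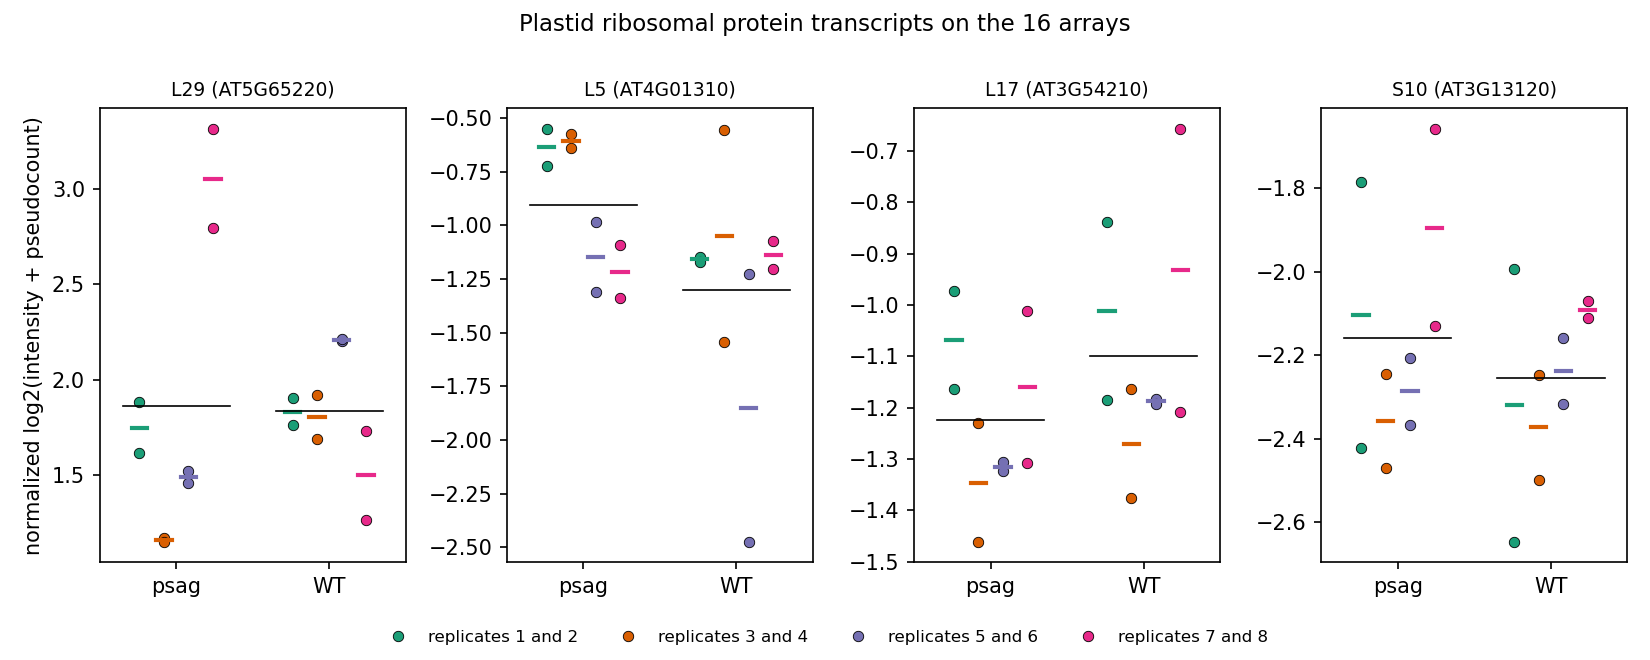
Normalized log2 intensity (y axis, a separate range in each panel) of the 4 genes with signal on all 16 arrays, psag at the left and WT at the right of each panel. Points are arrays, short coloured bars are the means of neighbouring replicates and thin black lines are the means of the 4 measurements; for L29 the psag replicates 7 and 8 lie above all other arrays, with a measurement of 3.05 against 1.16 to 1.75 in the other psag measurements.

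L29, encoded by AT5G65220, sits beside the exit of the tunnel through which new proteins leave the large subunit, as known from bacterial ribosomes. Its probe had a deposited intensity of 2.45 to 7.47 on the psag arrays with a median of 3.04, and of 2.33 to 4.31 on the WT arrays with a median of 3.97. The order of the replicates differed between the genotypes. In psag, replicates 7 and 8 were the highest of the 8 arrays, at 4.78 and 7.47, and in WT, replicates 7 and 8 were the lowest, at 2.33 and 3.05.

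After normalization the 4 psag measurements of L29 were 1.75, 1.16, 1.49 and 3.05 on the log2 scale, in the order of the replicate numbers. The 4 WT measurements were 1.83, 1.80, 2.21 and 1.5 in the same order. The means were 1.86 ± 0.83 in psag and 1.84 ± 0.29 in WT (SD, n = 4 each). The difference of 0.03 ± 0.41 (SE) had a 95% interval of -0.95 to 1, which corresponds to fold changes from 0.518 to 2 (limma, adjusted p = 1). The spread in psag was wider than that of 87.1% of all probes, whereas in WT it was wider than that of 49.4%.

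The position of psag relative to WT turned over with replicates 7 and 8. At these numbers L29 was 1.55 higher in psag on the log2 scale. At replicates 1 and 2, 3 and 4, and 5 and 6 the differences were -0.08, -0.64 and -0.72. Without psag replicates 7 and 8 the difference of the means was -0.37 (limma, adjusted p = 0.441). In that fit 0 of the 6 genes passed, against 2.47% of all probes. When replicates 7 and 8 of both genotypes were left out, a choice made after the values were seen, L29 averaged 1.47 ± 0.30 in psag and 1.95 ± 0.23 in WT (SD, n = 3 each). That difference of -0.48 ± 0.20 (SE) had a 95% interval of -1 to 0.03 and did not pass (limma, adjusted p = 0.292). The 3 psag measurements then lay below the 3 WT measurements, which held for 1 of the 6 genes, but the genotypes were separate for 22.9% of all probes under the same choice. In that fit 0 of the 6 genes had an unadjusted p under 0.05, against 18.8% of all probes, and 0 of the 6 passed after adjustment, against 1.43% of all probes.

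The sign of the L29 difference also depended on how the arrays were scaled. It was -0.10 after median centring and -0.07 without normalization. Without replicates 7 and 8 of both genotypes the difference was negative under all 3 scalings, at -0.48 with quantile normalization, -0.79 with median centring and -0.47 without normalization.

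L5, encoded by AT4G01310, binds the smaller RNA of the large subunit in bacteria and forms part of the protuberance that faces the small subunit. Its intensity was 0.242 to 0.752 on the psag arrays with a median of 0.556, and 0.136 to 0.631 on the WT arrays with a median of 0.368. The psag arrays fell into a brighter and a dimmer set by their numbers: replicates 1 to 4 lay between 0.669 and 0.752, and replicates 5 to 8 between 0.242 and 0.443. The brighter psag arrays lay above all 8 WT arrays on the deposited scale, on which the psag arrays 1 to 4 were also brighter as a whole. After normalization WT replicate 4, at -0.56, lay among them, above psag replicates 1, 3 and 4.

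On the normalized log2 scale the psag measurements of L5 were -0.64, -0.61, -1.15 and -1.22. The WT measurements were -1.16, -1.05, -1.85 and -1.14. L5 averaged -0.90 ± 0.32 in psag and -1.30 ± 0.37 in WT (SD, n = 4 each), and its difference of 0.40 ± 0.23 (SE) was the largest of the 6 in size. It did not pass (limma, adjusted p = 0.550), and its 95% interval of -0.15 to 0.95 corresponds to fold changes from 0.899 to 1.93. Among all probes, 68.9% had a smaller difference in size.

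The L5 difference kept its sign under all 24 other settings tried, between 0.22 and 0.77, with adjusted p between 0.267 and 0.807 (limma). In 2 of the 8 neighbouring pairs, both of WT, the arrays differed by more than the genotypes did, and in psag the gap was at most 0.33 on the normalized log2 scale. WT replicates 5 and 6 had intensities of 0.379 and 0.136, a gap of 1.25 on the normalized log2 scale, and WT replicates 3 and 4 had 0.290 and 0.631. Replicate 6 was the lowest of all 16 arrays for L5. Without WT replicates 5 and 6 the difference was 0.22 (limma, adjusted p = 0.700), and it was 0.50 with psag replicates 7 and 8 left out (limma, adjusted p = 0.360).

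L17, encoded by AT3G54210, lies near the tunnel exit of the large subunit in bacteria, as L29 does. The intensity of its probe was 0.246 to 0.560 in psag with a median of 0.378, and 0.329 to 0.701 in WT with a median of 0.393. The highest value, 0.701, belonged to WT replicate 7, and its neighbour, WT replicate 8, had 0.485. Normalized measurements were -1.07, -1.35, -1.32 and -1.16 in psag. In WT they were -1.01, -1.27, -1.19 and -0.93. The ranges overlapped over most of their width.

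L17 was the large-subunit gene with the narrowest interval among those with signal on all arrays. It averaged -1.22 ± 0.13 in psag and -1.10 ± 0.16 in WT (SD, n = 4 each), and the difference was -0.12 ± 0.10 (SE; limma, adjusted p = 0.693). The 95% interval of -0.37 to 0.12 corresponds to fold changes from 0.775 to 1.09. At each of the 4 pairs of numbers the quantile normalized psag measurement was below the WT one, with differences of -0.06, -0.08, -0.13 and -0.23, but without normalization they were 0.38 and 0.29 at replicates 1 and 2 and at 3 and 4. Leaving out 1 measurement gave differences from -0.18, without WT replicates 3 and 4, to -0.07. It was -0.07 without WT replicates 7 and 8, -0.08 without psag replicates 3 and 4, and -0.14 without psag replicates 7 and 8 (limma, adjusted p = 0.848, 0.795 and 0.606 in this order).

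S10, encoded by AT3G13120, is a protein of the head of the small subunit, and in Escherichia coli it also takes part in transcription antitermination. Its intensity was 0.123 to 0.321 in psag with a median of 0.187, and 0.0834 to 0.264 in WT with a median of 0.155. The lowest WT array was replicate 1, and the highest psag array was also replicate 1. Normalized measurements were -2.10, -2.36, -2.29 and -1.89 in psag and -2.32, -2.37, -2.24 and -2.09 in WT.

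The S10 means were -2.16 ± 0.21 in psag and -2.26 ± 0.12 in WT (SD, n = 4 each). The difference of 0.09 ± 0.12 (SE) had a 95% interval of -0.19 to 0.38, or fold changes from 0.877 to 1.30 (limma, adjusted p = 0.764). Leaving out psag replicates 7 and 8 brought it to 0.01 (limma, adjusted p = 1). Neighbouring arrays disagreed on the sign: the odd-numbered replicates alone gave 0.36 (limma, adjusted p = 0.597) and the even-numbered replicates alone gave -0.17 (limma, adjusted p = 0.518). The gap between neighbours reached 0.64 in psag and 0.65 in WT on the normalized log2 scale, larger than any difference between the genotypes that these settings gave.

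**Figure D2:**
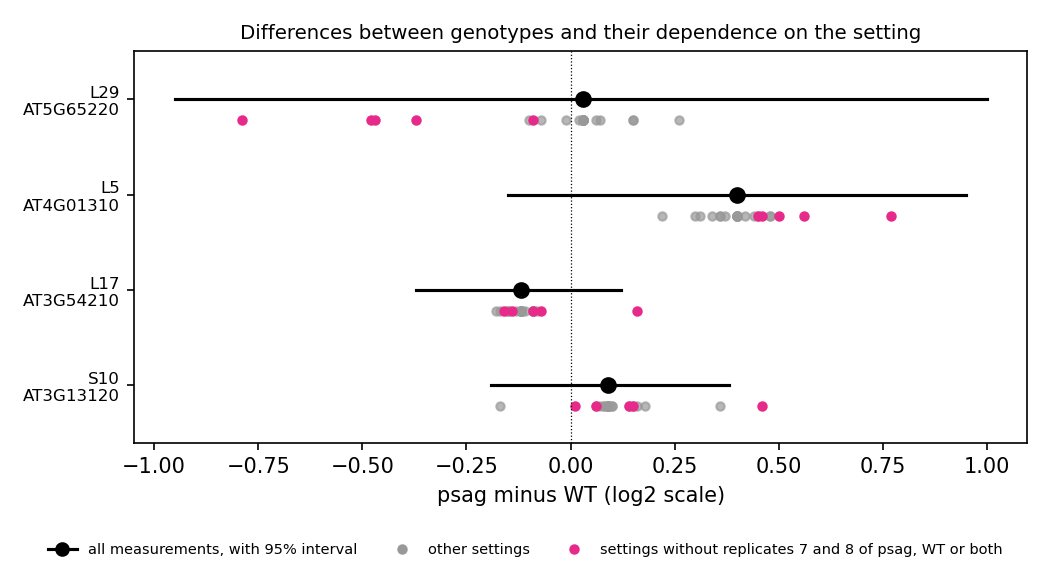
Difference between psag and WT on the log2 scale (x axis) for the 4 genes with signal on all arrays. Black points with lines are the differences over all measurements with their 95% intervals, which all include 0, and the small points below them are the 24 other settings, with those that leave out replicates 7 and 8 of psag, of WT or of both in pink; L29 reaches -0.79 among these.

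The 2 remaining genes were listed at 0 on most arrays. L34, encoded by AT1G29070, is a small protein of the large subunit. Its probe was at 0 on 6 of 8 psag arrays and 5 of 8 WT arrays. The values above 0 were 0.0170 and 0.0296 in psag replicates 3 and 4, and 0.0148, 0.00720 and 0.0537 in WT replicates 5, 6 and 8. S6, encoded by AT1G64510, binds the ribosomal RNA of the small subunit together with S18 in bacteria. It was at 0 on 8 of 8 psag arrays and 7 of 8 WT arrays, and the exception was 0.00685 in WT replicate 4. All of these values except that of WT replicate 8 for L34 were below the added constant of 0.0407. No fold change is given for either gene, because neither genotype had a level that could be set against the other, and a listed 0 does not show that the transcript was absent.

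The 4 genes with signal were next compared by replicate number, because arrays of one number may share conditions that the labels do not give. Before normalization, 3 of the 4 genes were higher in psag at replicates 1 and 2, and 3 of 4 at replicates 3 and 4. At replicates 5 and 6, and at replicates 7 and 8, 1 of 4 was higher. All probes went the same way: 69.7% and 67.7% of them were higher in psag at the first pairs of numbers, 43.5% at replicates 5 and 6, and 27.1% at replicates 7 and 8. L17 and S10 followed the array as a whole, with unnormalized differences of 0.38 and 0.87 at replicates 1 and 2, and of -0.97 and -0.63 at replicates 7 and 8.

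Quantile normalization removed most of this for L17 and S10. Their differences at replicates 7 and 8 became -0.23 and 0.20. L29 went against the array at replicates 7 and 8, since it was higher in psag by 1.15 on the log2 scale before normalization while the median of all probes was -0.39, and normalization widened its difference to 1.55. For L5 the normalized differences were 0.52, 0.45 and 0.71 at the first 3 pairs of numbers and -0.08 at replicates 7 and 8. After quantile normalization the number of genes higher in psag was 2, 2, 1 and 2 of 4 at the 4 pairs of numbers. Of all probes, 43.7%, 45.2%, 42.7% and 48.5% were higher in psag there. The genes thus did not share a direction at any pair of numbers, and with 4 genes these counts do not set the group apart.

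**Figure D3:**
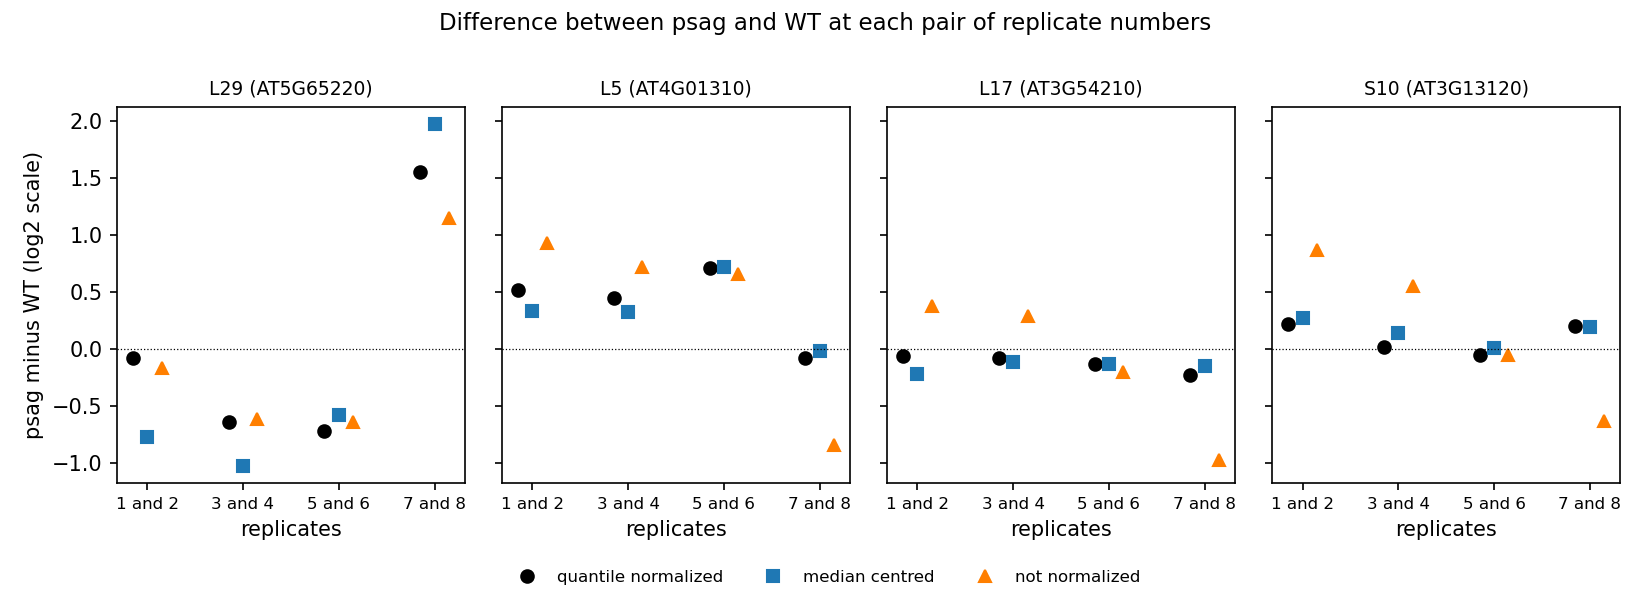
Difference between the psag and WT measurements of the same replicate numbers (y axis, log2 scale) for the 4 genes with signal, with quantile normalized, median centred and unnormalized values. For L17 and S10 the unnormalized differences (triangles) run from above 0 at replicates 1 and 2 to below 0 at replicates 7 and 8, while L29 is above 0 at replicates 7 and 8 under all 3 scalings.

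The genes varied little in step with each other. Over the 16 arrays, which share the labelling and scaling of each array, the normalized levels of L17 and S10 had a Pearson correlation of 0.56, and it was 0.59 over the 14 arrays left without psag replicates 7 and 8. The proteins belong to different subunits. L29 and S10 correlated at 0.39, or 0.12 without that psag pair, and L29 and L5 at -0.35, or -0.48 without it. These values include the difference between the genotypes. With each genotype's mean taken off, L29 and L5 correlated at -0.40, or -0.28 without the pair, L29 and S10 at 0.39, or 0.15, and L17 and S10 at 0.66, or 0.64. The correlations of L17 with L29 and L5 were -0.01 and 0.00, and that of L5 with S10 was -0.05. Over all pairs of the 570 single-gene loci above 0 on at least 12 arrays the median correlation was 0.00, with quartiles of -0.31 and 0.31, also with the genotypes' means left in.

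Among the 566 other such loci, those with the level pattern most like L29 over the 16 arrays were AT3G25840 and AT4G15790, at correlations of 0.88 and 0.87. Without psag replicates 7 and 8 these values were 0.54 and 0.61, so much of the likeness lay in that pair. For L5 the closest loci were AT2G41120 at 0.80 and LpxA at 0.72, and without the pair they stood at 0.81 and 0.77. For S10 they were PIFI, whose product is a chloroplast protein linked to electron flow after illumination, at 0.66 and AT3G03590 at 0.64, or 0.55 and 0.44 without the pair. For L17 they were AT5G10920 and AT5G38310 at 0.55 and 0.54, no higher than its correlation with S10. These correlations were picked as the highest of 566 for each gene, so their size partly reflects the search, and no link between the genes was tested. None of these 8 loci passed the test between genotypes (limma, adjusted p between 0.513 and 0.959).

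The rest of the plastid translation apparatus was hardly covered by probes of a single gene. Of 41 nuclear loci listed as plastid ribosomal proteins, the 6 described here were the only ones with such a probe. Of 12 loci of plastid initiation, elongation, release and recycling factors, 0 had one. Probes annotated to several genes were searched by locus number only. At least 3 of them included such a locus and were not used, and any that give the gene by its symbol were not counted. The 6 genes are therefore a small sample of the ribosome, and 2 of them gave no usable level.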

How the data were processed

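The authors deposited probe intensities, a unit inferred from their linear range; the labels do not state how they were scanned, corrected or scaled. GEO's platform annotation gave 1 gene for 692 probes, several for 870 and none for 1877, and 690 of the 692 matched RefSeq genes (TAIR10.1). The probes' build is unknown here, so neither positions nor sequences are printed. Where a locus had several probes of its own, the one with the highest mean was kept. Values were taken as log2(intensity + 0.0407), the constant being the 5th percentile of the positive intensities. All 16 arrays were quantile normalized together before neighbouring replicates were averaged. The model was limma 3.58.1 (R 4.3.3, lmFit, eBayes) over 3438 probes with Benjamini-Hochberg adjustment. It was also run on simulated data with independent normal noise. Those data had neither the floor at 0 nor the outlying psag pair, so that run does not show how the model performs here.

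The 6 genes, the lists and the averaging were chosen with earlier results of these data known. Named genes were the 6, any measured locus of the translation lists, and the 2 loci most correlated with each gene that was above 0 on most arrays. A search for other translation genes could use symbols and synonyms only and found 0. Alternatives covered the added constant, normalization, filters on dim probes, limma-trend, the replicate unit, blocks by replicate number and left-out measurements. The number of arrays limits the precision.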

Additional observations from a re-analysis of the deposited data

Results flagged for a closer look

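Of 16 groups examined, 8 of 4 measurements and 8 of 8 arrays, 1 held a value far from the others, and chance gives about 1 in 20. For L5 in WT the gap to the nearest measurement was 0.867 of the range. WT replicates 5 and 6 were at -1.85 on the normalized log2 scale, and the other WT measurements were at -1.05 to -1.16. The low value came mainly from WT replicate 6, at an intensity of 0.136, against 0.379 in WT replicate 5. Without this measurement the L5 difference was 0.22, against 0.40 with it, and neither passed (limma, adjusted p = 0.700 and adjusted p = 0.550).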

How the results depend on the processing

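In none of the 24 other settings did any of the 6 genes pass (limma), though L34 and S6 were not tested without the dimmest 25% of probes. Settings that left out replicates 7 and 8 of both genotypes were chosen after seeing the data. L5 kept its direction in 24 of 24 settings, L17 and S10 in 23 each, and L29 in 16. The causes of the reversals were not tested. L29, at 0.03, was -0.10 with median centring, -0.07 without normalization and -0.01 with even-numbered replicates, and leaving out 1 measurement gave -0.37 (without psag replicates 7 and 8) to 0.26; it was -0.09 without WT replicates 7 and 8. Without replicates 7 and 8 of both genotypes it was -0.48, or -0.79 with median centring and -0.47 with no normalization; in the last of these L17 was 0.16. S10 was -0.17 with even-numbered replicates. The 11 probes past the threshold became 0 with median centring, 2 without probes listed at 0 on all arrays, 3 without the dimmest 25% of probes, 4 with limma-trend, 330 with 16 separate arrays, 113 with neighbours as a random block, 6 with odd-numbered and 6 with even-numbered replicates, and 0 to 85 when 1 measurement was left out, with 85, or 2.47%, without psag replicates 7 and 8. They became 0 without psag replicates 1 and 2 or WT replicates 1 and 2, 5 and 6 or 7 and 8, 1 without WT replicates 3 and 4, 2 without psag replicates 3 and 4, and 4 without psag replicates 5 and 6. Without replicates 7 and 8 of both genotypes they became 49, or 20 with median centring and 33 with no normalization.

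As a replicate block, averaged pairs of the same numbers gave 1 probe and single numbers gave 287, with 0 of the 6 genes in either. Their L5 difference stayed at 0.40 (limma, adjusted p = 0.447 and adjusted p = 0.281). Deviations of same-numbered arrays correlated across genotypes at 0.0514 to 0.206, and 6 of 8 arrays of each genotype correlated best with their own number, a hint from the data and not from the design. For the averaged pairs the correlations were 0.000877 to 0.166, and 2 of 4 psag and 3 of 4 WT measurements correlated best with their own position.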
